A study of Homo sapiens with 6 samples.

Results

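Transcripts of the genes for respiratory complex I were compared between cells labelled LNCaP given a LINC01518 overexpression vector and cells with the same label given an empty vector. Members were taken by current symbol, as those that start with NDUFA, NDUFB, NDUFC, NDUFS, NDUFV, NDUFAF or MT-ND, leaving out NDUFA4 and NDUFA4L2. This gave 53 of the 20263 genes in the table: 7 nuclear genes for core subunits, 30 nuclear genes for accessory subunits, 8 genes for assembly factors with an NDUFAF symbol, 7 mitochondrially encoded genes, and 1 readthrough gene, NDUFC2-KCTD14. None of the 53 passed the edgeR test between the groups, which called 5.6% of all genes tested. DESeq2 called NDUFA1 and NDUFS5 higher and NDUFV3 lower, beside 10.1% of all genes tested in that fit. Within the mitochondrial mRNAs the complex I genes had a smaller share of the counts in each overexpression library than in any empty vector library. This measure was added after the values were seen. As a share of all counts in a library, the same genes overlapped between the groups.

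Complex I is the NADH dehydrogenase of the inner mitochondrial membrane. It takes electrons from NADH, passes them through flavin and iron-sulfur clusters to ubiquinone, and pumps protons across the membrane, and the gradient formed drives ATP synthesis. Its core subunits carry out these steps and are encoded partly in the nucleus and partly in mitochondrial DNA; accessory subunits surround and stabilise the core, and assembly factors join the modules but are absent from the finished enzyme. The complex is described by its modules: the N module binds NADH, the Q module passes electrons to ubiquinone, and the proximal and distal membrane arms pump protons.

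LNCaP is an established, androgen-responsive line of human prostate cancer cells, given in the labels as hormone-dependent. Both groups were transfected, 3 libraries with the empty vector and 3 with the LINC01518 vector, and LINC01518 is a long non-coding RNA. The series' design text names MEG3 as the RNA overexpressed where the sample labels name LINC01518; neither RNA was analysed here. The labels give no vector backbone, promoter, dose, time after transfection or statement that the replicates were separate cultures, and the p-values therefore speak only to how far libraries vary, which may be technical variation. Total counts lay between 38161544 and 42553688 per library, so that a count of 0 would have allowed 0.0705 to 0.0786 CPM (counts scaled to the size of the library), counting error only. Of 12 luminal prostate markers, KLK3, KLK2, TMPRSS2, FOLH1 and TRPM8 were at 0 counts in all 6 libraries, and the summed level of the list was 2303 to 2549 CPM with the empty vector and 2700 to 2859 CPM with overexpression (sums without library scaling). LNCaP is known to express several of the markers at 0, so these markers go against the label, and the identity of the cells was not tested. In the same list KRT8 rose, with a log2 fold change of 0.29 (edgeR adjusted p = 0.0187). Of 9 stromal and immune markers, PTPRC was at 0 in all libraries, and the summed level was 684 to 1016 and 774 to 1097 CPM, most of it VIM. COL1A1 and PDGFRB rose by 0.47 and 0.31 on the log2 scale (edgeR adjusted p = 0.00452 and 0.0471), and CD68 fell by 0.65 (0.00722). The part of either list in the values below was not tested. In RNA from a whole culture, fewer cells of a kind and less RNA per cell cannot be told apart.

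Transcript levels differed far more between the classes than between the groups. Levels are compared between genes in the deposited TPM, a relative abundance that allows for transcript length, as means over all 6 libraries. The median was 4709 TPM for the 7 MT-ND genes, 189 TPM for the nuclear core genes, 109 TPM for the accessory genes and 26.1 TPM for the NDUFAF genes. The MT-ND median was 35.6 times the median of the 37 nuclear subunit genes, and the lowest MT-ND gene, MT-ND6 at 1450.3 TPM, stood at 2.11 times the highest nuclear one. That highest nuclear gene was NDUFS5 at 688 TPM, which encodes an accessory subunit of the membrane arm on the intermembrane space side.

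**Figure D1:**
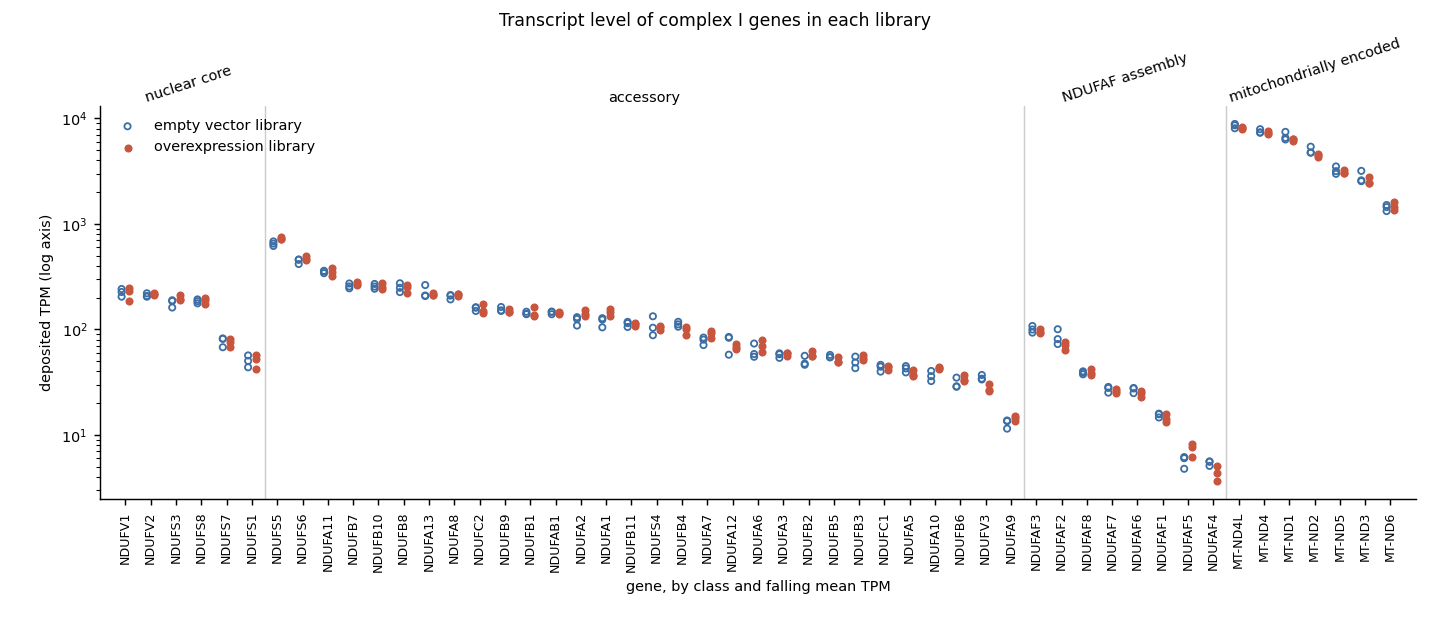
Deposited TPM of the complex I genes reported (vertical, log axis) in each of the 3 empty vector and 3 overexpression libraries, with genes ordered by class and by falling mean. The MT-ND genes lie above all nuclear genes, and the NDUFAF genes reach from 98.1 TPM (NDUFAF3) down to 4.89 TPM (NDUFAF4).

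Among the core genes, NDUFV1, which encodes the flavin subunit where NADH is oxidised, had the highest mean at 222 TPM, and NDUFS1, which encodes the largest iron-sulfur subunit, the lowest at 50.4 TPM, a ratio of 4.41. In CPM the order was reversed, with 178 to 186 for NDUFS1, whose annotated exons cover 12268 bases, and 115 to 146 for NDUFV1. NDUFV1, NDUFV2 at 214 TPM, NDUFS3 at 189 TPM and NDUFS8 at 186 TPM, overlapped between libraries in the plot of levels. Accessory genes covered a 50.5-fold range from NDUFS5 to NDUFA9 at 13.6 TPM, although NDUFA9, a subunit at the junction of the Q module and the membrane, had 44.8 to 65.1 CPM. The annotated exons of NDUFA9 cover 10391 bases, beside a median of 2263 bases for the nuclear subunit genes. The assembly factor genes spanned a 20.1-fold range, and the MT-ND genes a 5.75-fold range from MT-ND4L at 8339.6 TPM to MT-ND6. The lowest count in any library was 177 for an NDUFAF gene, 534 for an accessory gene, 2034 for a core gene and 14865 for an MT-ND gene. The readthrough gene had 0, 35 and 19 counts in the empty vector libraries and 3, 35 and 20 in the overexpression libraries, and no fold is given for it.

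All 53 members passed the filter on low counts. In the edgeR quasi-likelihood test with Benjamini-Hochberg adjustment over 13543 genes, 0 of the 53 were called at an adjusted p under 0.05, where 5.6% of all genes tested were called, 3.57% higher and 2.03% lower. At an unadjusted p under 0.05, 8 of the 53 members passed, 7 higher and 1 lower, beside 23.6% of all genes tested (12.3% higher and 11.4% lower). DESeq2 called 3 members, NDUFA1 and NDUFS5 higher and NDUFV3 lower, beside 10.1% of all genes tested in that fit (6.02% higher and 4.04% lower). Limma-voom called 0, as did limma-trend on log2(TPM + 0.1), which called 1.71% of all genes. The CPM of the groups did not overlap for 7 members that were higher and 3 that were lower with overexpression, beside 31.4% of all genes tested (15.9% higher and 15.5% lower).

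**Figure D2:**
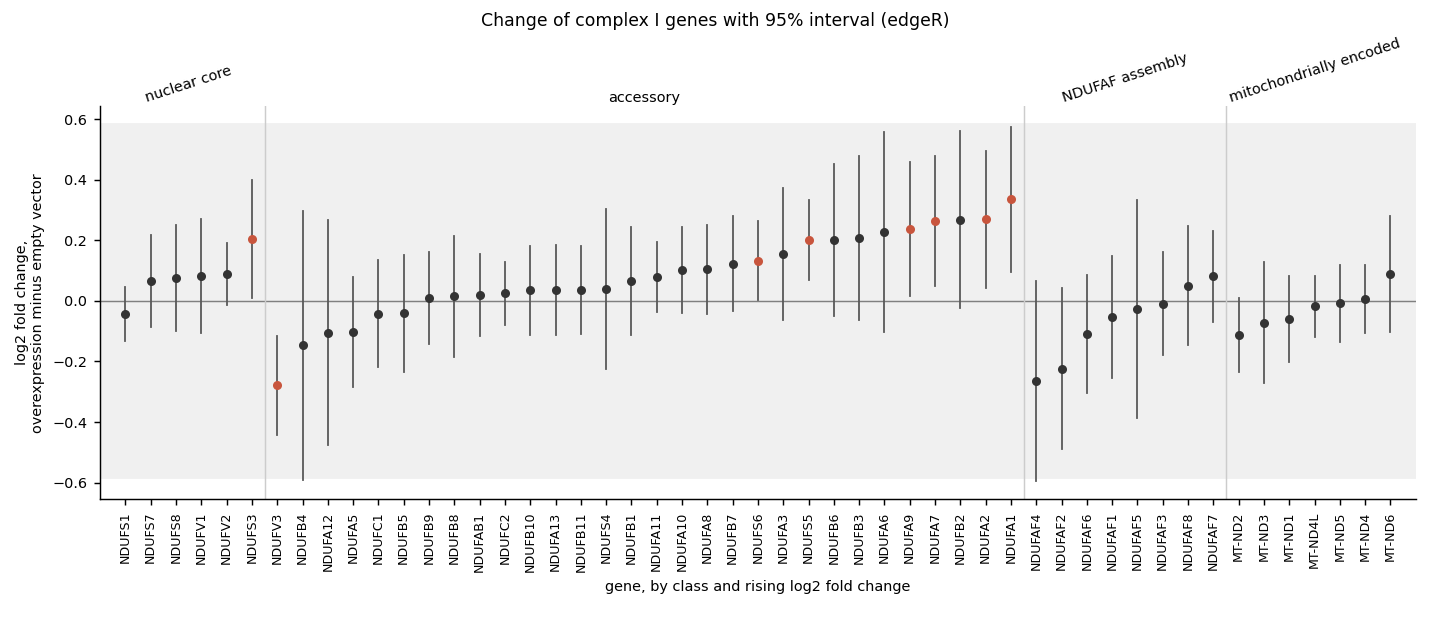
Log2 fold change of the complex I genes reported, overexpression minus empty vector, with its 95% interval from edgeR; the shaded band marks 1.5-fold in both directions and red points mark an unadjusted p under 0.05. Among the genes drawn, only the intervals of NDUFB4 and NDUFAF4 reach outside the band, on the lower side; the readthrough gene is not drawn.

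The fold changes were small and closely bounded. The 95% interval lay within 1.5-fold in both directions for 50 of 53 members (beside 73.8% of all genes tested), the exceptions being NDUFB4, NDUFAF4 and the readthrough gene, and within 1.3-fold for 37 of 53 (beside 53.7%). The log2 fold change was above 0 for 6 of 7 core genes (median 0.08), 24 of 30 accessory genes (median 0.07), 2 of 8 NDUFAF genes (median -0.04) and 2 of 7 MT-ND genes (median -0.02), beside 49.2% of all genes tested with a median of -0.00. The last 2 classes turned when 1 library was left out: the MT-ND median was 0.02 with 4 of 7 above 0 without the first empty vector library and 0.00 with 4 of 7 without the second overexpression library, and the NDUFAF median was 0.02 with 4 of 8 without the third empty vector library. For the 37 nuclear subunit genes together the median was 0.08 with 30 above 0; on the deposited TPM it was 0.01 with 22 above 0, beside 40.0% of all genes. The differences between classes were not tested, and the values of 1 empty vector library that move with them are given further on.

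The core gene with the smallest p was NDUFS3 (chromosome 11, 47565336 to 47584562, GRCh38), whose product is a Q module subunit at the base of the matrix arm. NDUFS3 stood at 74.4, 87.4 and 91.5 CPM with the empty vector and at 104, 92.1 and 95.7 CPM with overexpression. Every overexpression library lay above every empty vector library, but the nearest pair, 91.5 and 92.1 CPM, differed less than the empty vector libraries did among themselves. Its log2 fold change was 0.20 (SE 0.0844), with an edgeR adjusted p of 0.194. Its exons share 721 bases with those of PTPMT1 on the same strand, so some reads could not be assigned to 1 gene. NDUFV2, an iron-sulfur subunit of the N module, stood at 99.4, 95.9 and 97.3 CPM and at 106, 102 and 103 CPM. These groups did not overlap either, at 0.09 on the log2 scale (SE 0.0441) and with an adjusted p from edgeR of 0.269. After a correction of the counts for GC content and length, edgeR gave NDUFV2 a log2 fold change of 0.16 and an adjusted p of 0.0437, in a fit that called 6.6% of all genes; over the settings that kept all libraries its adjusted p lay between 0.0437 and 0.644.

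In CPM, NDUFS1 varied little between libraries, with 184, 186 and 181 in the empty vector libraries and 178, 178 and 179 in the overexpression libraries. All 3 overexpression libraries lay below, by a log2 fold change of -0.04 with a 95% interval of -0.13 to 0.05. Its deposited TPM varied more, at 43.7, 56.7 and 50.3 against 42.4, 56.8 and 52.5, with overlap. The annotated exons of NDUFS1 cover 12268 bases. NDUFV1 had 115, 136 and 136 against 146, 137 and 126 CPM, with overlap (log2 fold change 0.08, interval -0.11 to 0.27). NDUFS7 and NDUFS8 encode subunits that carry iron-sulfur clusters of the Q module, and they had log2 fold changes of 0.07 and 0.08.

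NDUFV3, an accessory gene, had the smallest p and the lowest log2 fold change of the members. The gene lies on chromosome 21 (42879644 to 42913304, GRCh38) and encodes a small N module subunit with tissue-dependent isoforms. NDUFV3 stood at 40.3, 39.0 and 39.8 CPM with the empty vector and at 31.3, 31.2 and 35.6 CPM with overexpression. The empty vector libraries were close together and all overexpression libraries lay below them, at means of 39.7 ± 0.679 and 32.7 ± 2.51 CPM (SD, n = 3). The log2 fold change was -0.28 (SE 0.0712, 95% interval -0.44 to -0.11) with an edgeR adjusted p of 0.0615. It passed with DESeq2 (adjusted p = 0.0201) and in edgeR with library size only (0.0491), where 5.38% of all genes were called, and its adjusted p over the settings that kept all libraries ran from 0.0201 to 0.114.

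NDUFS5 (chromosome 1, 39026318 to 39034636) stood at 165, 186 and 183 CPM in the empty vector libraries and at 211, 199.9 and 202 CPM with overexpression. The overexpression libraries were higher throughout, at 0.20 on the log2 scale (SE 0.0567), for which edgeR gave an adjusted p of 0.0812. NDUFA1 (chromosome X, 119871487 to 119876662), whose small product is needed early in membrane arm assembly, stood at 39.2, 49.0 and 48.9 CPM and at 58.3, 52.5 and 62.4 CPM. Its groups did not overlap, and its log2 fold change, 0.34 with an SE of 0.103 (adjusted p from edgeR 0.102), was the largest of the 52 members other than the readthrough gene. The exons of NDUFA1 share 341 bases with RNF113A on the opposite strand. DESeq2 gave an adjusted p of 0.0421 for NDUFS5 and 0.037 for NDUFA1, the lowest of the settings that kept all libraries, of which the highest were 0.182 and 0.177.

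NDUFA7, an N module accessory gene, had 20.1, 22.8 and 24.8 CPM with the empty vector and 25.3, 27.2 and 28.7 CPM with overexpression. The libraries of the groups touched without overlap (log2 fold change 0.26, SE 0.0931, edgeR adjusted p = 0.142). NDUFA9 had 44.8, 54.4 and 56.9 against 65.1, 57.6 and 61.2 CPM, where the first empty vector library was the lowest (log2 fold change 0.24, SE 0.0955). NDUFA2 and NDUFS6, both of the N module, were the remaining accessory genes with an unadjusted p under 0.05, at log2 fold changes of 0.27 and 0.13. NDUFB4 had the widest interval of the subunit genes, -0.59 to 0.30, with 54.6, 50.1 and 39.6 CPM against 37.3, 53.8 and 39.2 CPM. The other 22 accessory genes had log2 fold changes between -0.10 and 0.27, and NDUFAB1, the mitochondrial acyl carrier protein that also serves outside complex I, was at 0.02.

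**Figure D3:**
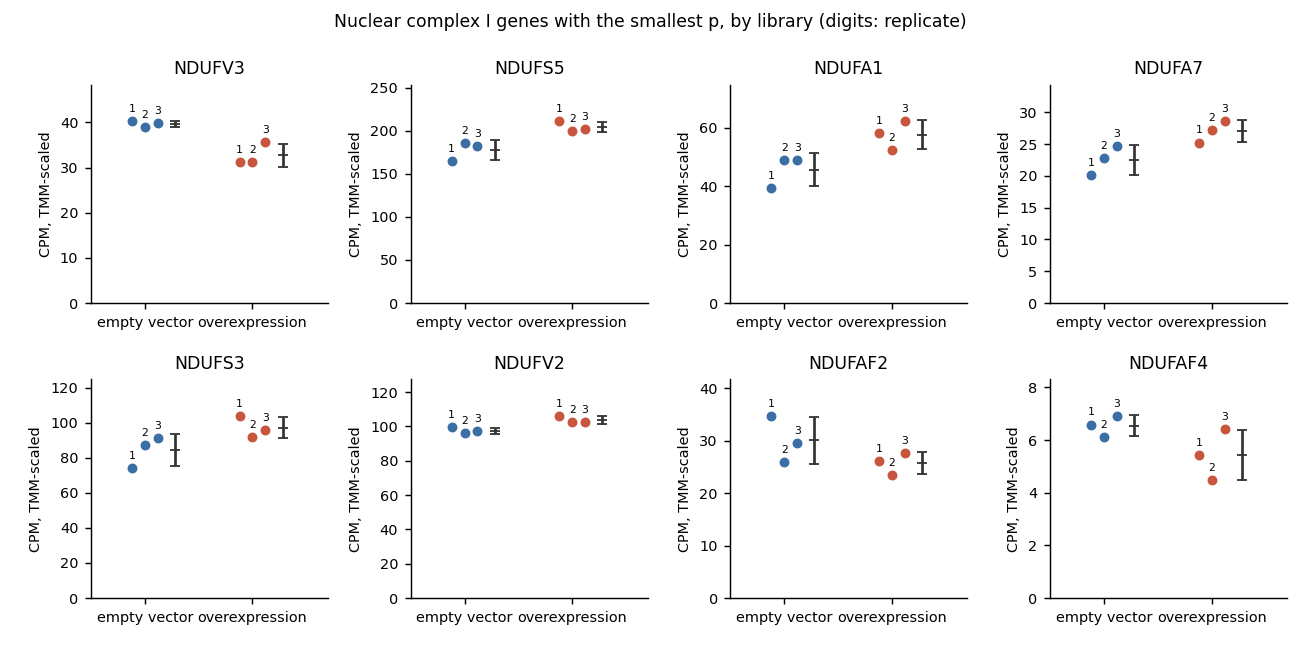
TMM-scaled CPM (vertical, from 0) of 8 nuclear complex I genes by library, with the mean and SD of 3 libraries beside the points. NDUFV3 lies lower in all overexpression libraries, NDUFS5, NDUFA1, NDUFA7, NDUFS3 and NDUFV2 lie higher, and NDUFAF2 and NDUFAF4 overlap between the groups.

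Of the 8 assembly factor genes, 6 had a log2 fold change below 0, or 4 of 8 without the third empty vector library, and 0 of 8 had an unadjusted edgeR p under 0.05 beside 23.6% of all genes tested. NDUFAF2, a factor bound to a late assembly intermediate, had 34.8, 25.9 and 29.6 CPM with the empty vector and 26.2, 23.4 and 27.6 CPM with overexpression. The groups overlapped, and the log2 fold change was -0.22 (SE 0.116, edgeR adjusted p = 0.287). NDUFAF4, which acts early together with NDUFAF3, had 6.59, 6.12 and 6.92 against 5.43, 4.50 and 6.41 CPM. This is again an overlap, with a log2 fold change of -0.27 and an interval of -0.60 to 0.07. NDUFAF3 itself was at 90.1, 98.6 and 109 against 96.8, 103 and 96.0 CPM, a log2 fold change of -0.01 (interval -0.18 to 0.16). NDUFAF6, required for early steps of assembly, had 16.2, 17.1 and 15.7 against 15.4, 13.9 and 16.1 CPM (-0.11), and NDUFAF7, a methyltransferase that acts in assembly, had 22.2, 21.9 and 23.5 against 23.6, 24.4 and 23.5 CPM (0.08). The remaining factors, NDUFAF1, NDUFAF5 and NDUFAF8, lay between -0.05 and 0.05.

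The MT-ND genes encode the membrane core subunits. They are transcribed as long polycistronic RNAs, MT-ND6 from the strand opposite to the other 6, and MT-ND4L and MT-ND4 are kept on 1 mRNA with overlapping reading frames. The end of MT-ND4L and the start of MT-ND4 are printed because these genes share 7 bases, in capitals, so reads at this junction cannot be assigned to 1 of them (GRCh38, transcripts of GENCODE release 29, plus strand):
MT-ND4L, chrM:10737-10766: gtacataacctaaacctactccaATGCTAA
MT-ND4, chrM:10760-10789: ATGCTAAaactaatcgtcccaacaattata

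In the fit over all genes the MT-ND genes were the class with the lowest median SE (0.0553), and all 7 intervals lay within 1.3-fold in both directions. MT-ND2 stood at 2762, 2483 and 2559 CPM with the empty vector and at 2352, 2389 and 2477 CPM with overexpression. Its groups did not overlap, and its log2 fold change of -0.11 (interval -0.24 to 0.01, edgeR adjusted p = 0.246) was the lowest of the 7. MT-ND6, the gene of the other strand, had 372, 349 and 410 against 368, 394 and 441 CPM, with overlap and the highest log2 fold change, 0.09 (interval -0.10 to 0.28).

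MT-ND1 had 3502, 3034 and 3238 against 3180, 3007 and 3197 CPM (log2 fold change -0.06). MT-ND3 had 539.9, 449 and 454 against 440.5, 435.5 and 497 CPM (-0.07). In both, the first empty vector library was the highest of the 6 and the groups overlapped. MT-ND4L had 1290.4, 1281 and 1237 against 1255, 1217 and 1289.9 CPM (-0.02), and MT-ND4 had 5354, 5066 and 5265 against 5184, 5099.7 and 5467 CPM (0.01). MT-ND5 had 3121, 2880.4 and 2799 against 2879, 2843 and 3032 CPM (-0.01). These 3 genes overlapped between the groups, and the sign of each depended on the libraries or scaling used.

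The 6 other mitochondrial mRNAs, for subunits of complexes III, IV and V, lay mostly on the other side, at a median log2 fold change of 0.16 with 5 of 6 above 0. MT-CYB, which encodes cytochrome b of complex III, rose from 2180 ± 85.3 to 2542 ± 82.4 CPM (SD, n = 3), by 0.22 on the log2 scale (SE 0.0491, adjusted p from edgeR 0.0424). Leaving out any 1 of the 6 libraries ended that call, with edgeR adjusted p between 0.0508 and 0.149, and so did the scaling by library size (0.0602) and the fits on TPM (0.0873 to 0.152, limma-trend). MT-CO3 was at 0.19, MT-ATP6 at 0.19, MT-CO2 at 0.14, MT-CO1 at 0.07 and MT-ATP8 at -0.06, and none of these 5 was called.

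**Figure D4:**
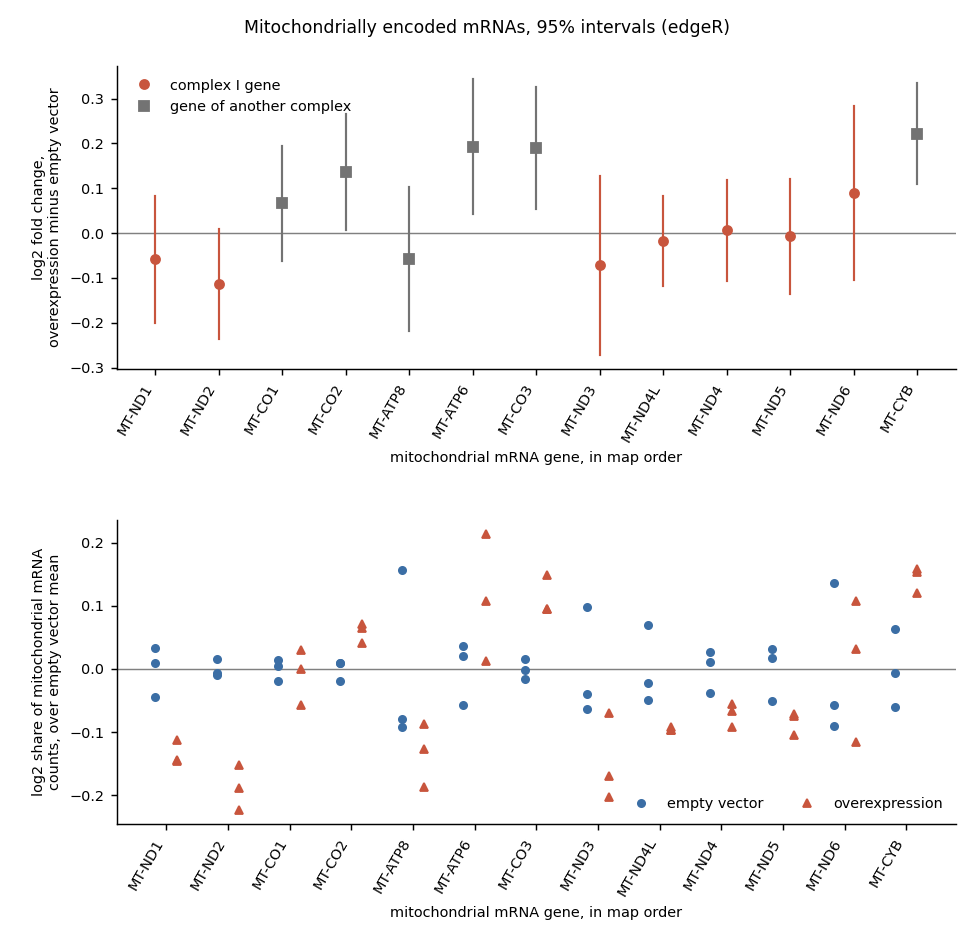
Upper plot, log2 fold change of the 13 mitochondrial mRNA genes in map order with 95% intervals from edgeR; lower plot, each library's share of the 13 genes' counts, as log2 over the mean share of the empty vector libraries. In the lower plot, 6 MT-ND genes lie lower in all overexpression libraries, MT-ND6 overlaps, and MT-CO2, MT-CO3 and MT-CYB lie higher.

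Each gene was also expressed as a share of the counts of all 13 mitochondrial mRNAs in its own library, a measure added after the values were seen that does not use the scaling between libraries. The 7 MT-ND genes together made up 33.6%, 33.7% and 33.7% of these counts in the empty vector libraries and 30.9%, 31.4% and 31.5% in the overexpression libraries. The lowest empty vector library lay above the highest overexpression library, with means of 33.7% ± 0.0491 and 31.3% ± 0.318 (SD, n = 3). In TPM the share was 34.5%, 34.7% and 34.3% against 31.7%, 32.1% and 32.1%. No p is given for this share, which was chosen after its values were seen, and with 3 libraries against 3 an exact permutation test cannot go below 0.1.

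Gene by gene, 6 of the 7 MT-ND shares did not overlap between the groups and were lower with overexpression. They are the same genes as the 6 of 13 (46.2%) that were lower, so this percentage is no separate background. The shares of MT-CO2, MT-CO3 and MT-CYB (23.1% of the 13 genes) were higher without overlap. MT-ND2 had 5.48%, 5.38% and 5.40% against 4.64%, 4.88% and 4.75%, the largest of these differences on the log2 scale (-0.19). MT-ND1 had 6.95%, 6.58% and 6.83% against 6.28%, 6.14% and 6.14%. MT-ND6 was the exception, with 0.738%, 0.756% and 0.865% against 0.726%, 0.804% and 0.847%. The shares add up to 100%, so a lower share of some genes requires a higher share of others, and they do not show which genes moved. In the total counts of the libraries the MT-ND genes took 1.72%, 1.57% and 1.60% against 1.55%, 1.52% and 1.62%, and the other 6 took 3.41%, 3.09% and 3.16% against 3.45%, 3.32% and 3.53%. In both cases the groups overlapped.

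By module, the 10 N module genes had a median log2 fold change of 0.09 and the 6 Q module genes 0.07. The 14 proximal membrane genes were at 0.06, or 0.10 for the 9 of them encoded in the nucleus, of which 8 were above 0. The 14 distal membrane genes were at 0.03, or 0.04 for the 12 nuclear ones. The N module held 3 of the 7 members that were higher at an unadjusted p under 0.05, NDUFA2, NDUFA7 and NDUFS6, together with NDUFV3, the only one that was lower. None of the 8 was in the distal membrane arm. With 23.6% of all genes tested at an unadjusted p under 0.05 and no test between modules, no difference between modules is shown.

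The nuclear and mitochondrial genes lay on opposite sides of their means in 3 libraries, by most in the first empty vector library. As the median over genes of log2 CPM minus the gene's mean over the 6 libraries, the 37 nuclear subunit genes were at -0.10, -0.05 and 0.04 with the empty vector and at 0.06, 0.01 and 0.05 with overexpression. The groups overlapped, and the first empty vector library was the lowest of all. It was the lowest of the 6 for 22 of the 37 nuclear subunit genes and the highest for 5 of the 7 MT-ND genes, whose medians were 0.09, -0.05 and 0.01 against -0.02, -0.05 and 0.05. Without this library, 26 of the 37 nuclear subunit genes had a log2 fold change above 0, at a median of 0.04, and without the third empty vector library 33 did, at a median of 0.12.

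**Figure D5:**
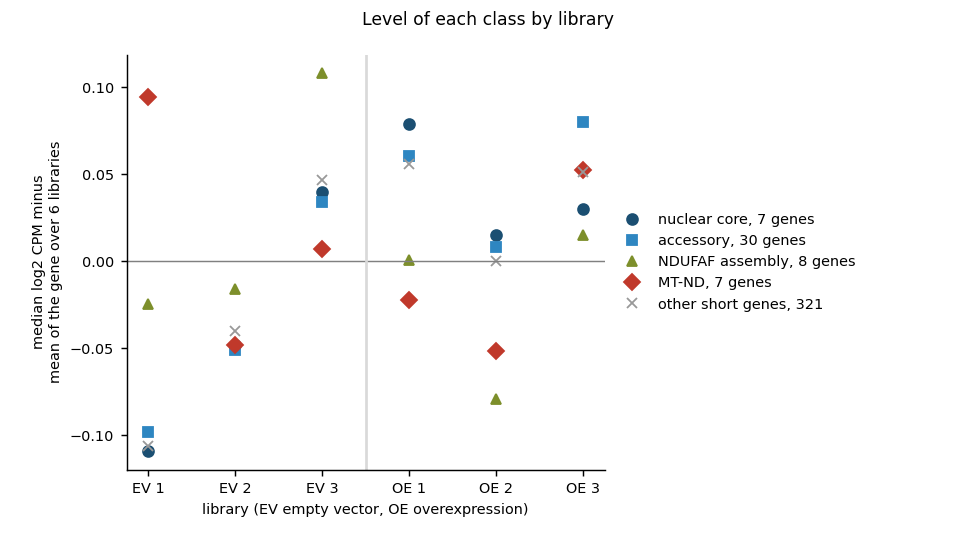
For each library, the median over a class of log2 CPM minus each gene's mean over the 6 libraries (vertical), for 4 classes of complex I gene and for 321 other short genes. Empty vector library 1 is lowest for the core and accessory genes and for the short genes, and highest for the MT-ND genes.

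Nuclear subunit genes are short, with a median exon length of 2263 bases beside 4936 bases over all genes tested. The 321 other genes with under 1500 bases of exon and a mean of at least 5 CPM, a set chosen after the data were seen, had library medians of -0.11, -0.04 and 0.05 against 0.06, 0.00 and 0.05. These medians ran close to those of the nuclear subunit genes in each library. The median subunit gene, at 2263 bases, is longer than this set allows. Whether length plays a part was not tested. Across the 37 nuclear subunit genes, the log2 fold change and exon length had a Spearman correlation of -0.331, beside -0.083 over all genes tested. With GC content the correlation was 0.246 for the subunit genes and 0.251 over all genes tested. These values are descriptions across genes that share the same 6 libraries. After the correction for GC content and length, 28 of the 37 nuclear subunit genes had a log2 fold change above 0, at a median of 0.05 beside 0.00 over all genes.

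None of the other assembly factors, regulators and mitochondrial RNA factors passed the edgeR test, which called 5.6% of all genes, with 23.6% of all genes at an unadjusted p under 0.05. Of 17 further complex I assembly factors, 0 were called and 3 had an unadjusted p under 0.05. ECSIT, a factor of the membrane arm, had 14.8, 13.6 and 12.3 CPM with the empty vector and 19.8, 18.1 and 16.2 CPM with overexpression, without overlap (log2 fold change 0.41, edgeR adjusted p = 0.0611). CHCHD4, which imports and oxidises cysteine-rich subunits, had 29.3, 28.96 and 26.1 against 23.0, 23.8 and 22.9 CPM, also without overlap (-0.28, edgeR adjusted p = 0.0611). Of 21 genes for mitochondrial transcription and RNA processing, 0 were called and 3 had an unadjusted p under 0.05. HSD17B10, a subunit of mitochondrial RNase P, had 96.2, 102 and 112 against 129, 118 and 122 CPM (0.25, edgeR adjusted p = 0.0692), and PNPT1, an exoribonuclease of the mitochondrial degradosome, had 84.3, 74.2 and 76.6 against 70.7, 69.8 and 66.5 CPM (-0.18, edgeR adjusted p = 0.13).

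Of 8 nuclear regulators of respiratory genes, 0 were called. An unadjusted edgeR p under 0.05 was found for 4, 1 higher and 3 lower, beside 23.6% of all genes tested (12.3% higher and 11.4% lower). The log2 fold change was below 0 for 6 of the 8, where 49.2% of all genes were above 0. The coactivator gene PPARGC1B had 21.9, 19.8 and 19.9 against 18.3, 16.1 and 17.6 CPM (-0.25, edgeR adjusted p = 0.123). YY1, a zinc finger transcription factor, had 242, 224 and 230.2 against 239, 266 and 275 CPM (0.16, edgeR adjusted p = 0.159), with overlap. DESeq2 called 4 genes higher and 1 lower over all of these lists and the other mitochondrial mRNAs. The lists hold 17, 21, 8, 6 and 2 genes, and DESeq2 called 10.1% of all genes tested in that fit (6.02% higher and 4.04% lower). Limma-trend on TPM called none of the listed genes higher. NDUFA4, once counted in complex I and now placed with complex IV, had 90.6, 105 and 108 against 118, 108 and 110.4 CPM (0.15), and NDUFA4L2 had 28.6, 31.8 and 12.4 against 40.0, 20.2 and 19.1 CPM (0.12); neither was called.

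Promoter windows from 250 bases before to 50 bases after the start were found for 39 of the 45 nuclear subunit and NDUFAF genes (RefSeq, GRCh38.p14) and were searched on both strands for motifs of factors tied to respiratory genes. Only the first window listed for a gene was used, for members and for the whole table; some members have further windows, which hold motifs not counted here. GCATGCGC, from the NRF1 motif, occurred in 7 of 39 windows (17.9%) beside 3.27% of the 27305 windows of the table. The ETS motif CCGGAAG, which GABPA can bind, occurred in 6 of 39 (15.4% beside 10.67%), the YY1 motif AAGATGGC in 6 of 39 (15.4% beside 3.03%) and the SP1 motif GGGCGG in 22 of 39 (56.4% beside 44.59%). The ETS motif is shown in capitals for 4 genes described above, because their log2 fold changes run from 0.34 (NDUFA1) through 0.20 (NDUFS3) and -0.04 (NDUFS1) to -0.27 (NDUFAF4):
NDUFA1, chrX:119871775-119871801, plus strand: tccgtcgcttCTTCCGGagccgtacgt
NDUFS3, chr11:47578981-47579007, plus strand: ccacgtccgcCCGGAAGaagatctgct
NDUFS1, chr2:206159585-206159611, minus strand: gctggggccaCTTCCGGcggaactgcg
NDUFAF4, chr6:96898022-96898048, minus strand: ccacctcccgCCGGAAGcggccctcgt

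NDUFA1 and NDUFS1 hold the reverse complement CTTCCGG, and NDUFS3 holds the motif in each orientation, of which 1 is shown. The NRF1 letters were in the first windows of NDUFA6, NDUFA8, NDUFAF4, NDUFAF5, NDUFB4, NDUFS6 and NDUFS7, with log2 fold changes of 0.23, 0.11, -0.27, -0.03, -0.15, 0.13 and 0.07. They are shown in capitals for a gene on each side of 0, NDUFS6, which holds the reverse complement, and NDUFB4, which holds both orientations with 6 shared letters:
NDUFS6, chr5:1801351-1801378, plus strand: cagaagccgtGCGCATGCgttagcgcta
NDUFB4, chr3:120596169-120596196, plus strand: agcacttcgcGCATGCGCatatcaccga
The YY1 motif was in the first windows of NDUFA3, NDUFA6, NDUFA7, NDUFA9, NDUFS4 and NDUFS7, whose log2 fold changes were 0.16, 0.23, 0.26, 0.24, 0.04 and 0.07. By these first windows, genes with a motif lay on both sides of 0 for the ETS and NRF1 letters and above 0 for the YY1 letters, beside 30 of 37 nuclear subunit genes above 0. A match to these letters is a description of the window, and no factor's binding was measured.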

How the data were processed

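RNA was measured by sequencing in 6 libraries, 3 per group. The submitters' processing notes list Trimmomatic 0.36, HISAT2, featureCounts (Subread 1.5.1), DESeq and the build GRCh38. The authors' deposited counts are whole numbers per gene with no normalization, and the deposited TPM were used for levels and in alternative fits. How TPM were made, which annotation was used and whether counting was stranded is not given in the sources used here. Exons of 22 members overlap those of another gene, and whether reads of opposite strands were told apart is not known. Reads from nuclear copies of mitochondrial DNA and from pseudogenes may also be shared.

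Symbols came from a gene name table (20148 of 20263 genes matched), positions from GENCODE 29. Counts were fitted with edgeR 4.0.16 in R 4.3.3 (filterByExpr, minimum count 10, total 15; TMM scaling; robust quasi-likelihood, group as the only term), and p-values were adjusted by Benjamini-Hochberg over 13543 genes and called under 0.05. SE is the size of the log2 fold change divided by the square root of F. Alternatives used DESeq2 1.42.0 and limma 3.58.1. On simulated counts the edgeR fit called 24% of 50 genes changed 1.25-fold and 64% of 50 genes changed 1.5-fold. For 50 genes each changed 2-fold and 4-fold it called 92% and 100%. It also called 18 genes that had not been changed, of 13452 genes fitted. Members and lists were chosen with earlier results of these data known. Genes named were the MT-ND genes, the 4 smallest p and the highest and lowest TPM of each nuclear class, and called genes or otherwise the 2 smallest p of each list; further members and the mitochondrial genes are named to account for counts. Replicates were not paired in the main fit. The NRF1 letters were shortened after a longer form had been searched. FASTKD4 of the mitochondrial RNA list was not matched. The values of 1 core gene are not reported here, although counts and medians include it.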

Additional observations from a re-analysis of the deposited data

How the results depend on the processing

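Of 620 alternative values (31 named genes under 20 settings), 569 kept their direction and side of the threshold, 12 fell short of the threshold, 9 newly passed it and 30 changed sign; all signs that changed were of values not called. Members called numbered 0 under every setting except library size only (1 lower), GC and length correction (1 higher) and DESeq2 (2 higher, 1 lower). Other pathway genes called higher, 1 as reported, numbered 0 with library size only, the replicate block, the block with GC and length correction, and all 3 TPM fits, 0 to 1 with a library left out (1 without the third empty vector library, where HSD17B10 passed and MT-CYB did not), and 4 with DESeq2, which also called 1 lower. MT-CYB had an edgeR adjusted p of 0.0787 with the replicate block and 0.0869 with the block and GC and length correction. The replicate block called 232 of all genes against 759 without it, and with GC and length correction 306 against 894; it called 0 members. The labels do not say whether libraries with the same number shared a culture or day. Over genes, correlations of their deviations were -0.029, 0.035 and 0.047, beside -0.078 to 0.043 for libraries with different numbers. These values do not cover single genes: the readthrough counts and the NDUFS1 TPM had the same order by number in both groups. DESeq2 called 1316 of all genes, the TPM fits 221, 230 and 153, and the fits without 1 library 193 to 458. TMM scaling split the calls over all genes into 484 on the higher side and 275 on the lower; library size only gave 346 and 382. On TPM the median was 0.0119, 0.0118 and 0.0119 for core genes and 0.0131, 0.0130 and 0.0131 for accessory genes; with GC and length correction the MT-ND median was -0.0839. Signs changed for MT-ND4 (-0.0036 upper-quartile, -0.026 library size, -0.0387 in each TPM fit), MT-ND5 (0.0200 with GC and length, 0.0221 with the block added), NDUFS1 (0.0074 and 0.0081 likewise, 0.0061 on TPM), NDUFV1 (-0.0316 and -0.0315 on TPM) and NDUFAF7 (-0.0619 and -0.0599 on TPM). Leaving out single libraries gave -0.1351 to 0.0171 for MT-ND3, -0.0239 to 0.0267 for MT-ND4, -0.0385 to 0.0034 for MT-ND4L, -0.0403 to 0.0372 for MT-ND5, -0.0757 to 0.0638 for NDUFAF3 and -0.3087 to 0.3644 for NDUFA4L2. The cause of these changes was not tested. With 3 libraries a group, differences under the stated intervals could not be resolved.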
